A study of Mus musculus with 15 samples.

Results

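The promoters of 9 mouse genes that encode dual-specificity MAP kinase phosphatases (Dusp1, Dusp2, Dusp4, Dusp5, Dusp6, Dusp7, Dusp8, Dusp10 and Dusp16) were followed through 15 libraries of nucleosome occupancy. They were chosen by gene name, after RefSeq identifiers in the promoter annotation had been matched to symbols, and each gene had 1 promoter, so that the group holds 9 of 25881 promoters. Of these, 5 had a coverage score above 100 (fragments near the annotated transcription start site, TSS, as the table of promoters gives them), as had 13559 promoters in all, namely Dusp1 (103.25), Dusp2 (174), Dusp8 (105.25), Dusp10 (115) and Dusp16 (111.5). The other 4 had lower coverage, with 78.75 for Dusp4, 66.5 for Dusp5, 42.25 for Dusp6 and 41.5 for Dusp7. They are described with the rest, and entered tests only in fits without a coverage minimum.

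MAP kinases (ERK, JNK and p38) pass signals from receptors for cytokines, growth factors and bacterial products to the nucleus, and are switched on by phosphorylation of a threonine and a tyrosine in the activation loop. The phosphatases described here remove both phosphates and so end the signal, and several of their genes are themselves induced by MAP kinase signalling, which makes them textbook negative feedback regulators in inflammation. Dusp1, Dusp2, Dusp4 and Dusp5 are nuclear enzymes of the inducible kind, Dusp6 and Dusp7 are cytoplasmic and prefer ERK, and Dusp8, Dusp10 and Dusp16 prefer JNK and p38.

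ChIP-MNase gave the occupancies: an antibody first pulls down long stretches of chromatin, which micrococcal nuclease then trims to single nucleosomes. Pooled sets of H3K4me1 libraries, each from 2 replicates, came from dendritic cells (DCs) and from 3T3 fibroblasts, an immortalised mouse line. DCs had been differentiated in culture from bone marrow progenitor lines, and were either non-stimulated or given LPS, a bacterial cell wall component, for 1 h at 100 ng/ml; fibroblasts were either non-stimulated or given the cytokine TNF-α for 1 h at 5 ng/ml. Another 8 single H3K4me1 libraries came from fibroblasts, 2 each of control and BAF-knockdown cells with or without the same TNF-α treatment. In BAF-knockdown cells 1 retroviral shRNA was stably expressed against both Brg1 and Brm, the ATPases of the BAF remodelling complex, and cells were sorted for a co-expressed fluorescent protein. The paper measured lowered but residual mRNA of both genes by quantitative RT-PCR. Occupancies do not give RNA levels, so the extent of the knockdown could not be checked in these libraries. From TNF-α-stimulated fibroblasts there were also 2 libraries for RNA polymerase II phosphorylated at serine 7 (pol-II S7P) and 1 for serine 5 (pol-II S5P). Reads were paired-end for pol-II and single-end for H3K4me1, and so the antibody and the type of sequencing cannot be told apart. By their titles the single H3K4me1 libraries of control cells belong to the knockdown experiment and the pol-II libraries do not, which adds the cell population to what cannot be told apart between them. The study calls its replicates biological, but the labels do not say how their cultures were kept apart. The p-values measure the spread between these libraries, which limma shares in part across promoters, except where stated below.

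Values are occupancies relative to the local 1 kb, in 200 bins of 10 bp from −1000 to 1000 bp of the TSS, and hold no counts. Depth was therefore followed as the share of bins with any fragment, whose mean over high-coverage promoters was 82.0 to 90.2% in pooled sets, 63.5 to 78.1% in single H3K4me1 libraries and 69.2 to 81.2% in pol-II libraries. Mean occupancy was 1.62 to 1.63 in pooled sets and 0.791 to 0.804 in single H3K4me1 libraries, so levels are compared within these kinds only. Expression before stimulation came with the promoter annotation and was not measured in these libraries. The paper took its expression data for both cell-types from public datasets, so marker calls do not check the cells profiled here. Of 12 DC marker genes all 12 were called active in DCs and 1 in fibroblasts before stimulation; of 12 fibroblast markers, 12 were active in fibroblasts and 3 in DCs, with Lum, Pdgfra and Twist1 listed at 0 there. Before stimulation Dusp1 (above 96.3% of promoters) and Dusp6 (96.6%) were the most highly expressed of the 9 genes in DCs, and Dusp10 (91.6%) in fibroblasts. Dusp8 was listed at 0 in DCs.

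The bases just upstream of the start are shown for 6 genes on the mm9 build, because the occupancy results turn on this stretch. Dusp1 and Dusp6 are shown as promoters emptied in the pooled sets and Dusp2 as one covered there. Dusp4 and Dusp5 are shown for their upstream starts, and Dusp8 for the lower values after both stimuli in those sets. The 150 bases before the start are given on the strand of the gene, 5′ to 3′, with capitals for motifs: the cAMP response element TGACGTCA, the TGACG core that is part of it, the GC box GGGCGG and the CArG box, all searched on both strands. CREB family factors bind the first, Sp1 family factors the GC box and serum response factor the CArG box. Dusp1 is at chr17:26645420-26645569 (minus strand), Dusp2 at chr2:127161745-127161894 (plus), Dusp4 at chr8:35870201-35870350 (plus), Dusp5 at chr19:53603449-53603598 (plus), Dusp6 at chr10:98725715-98725864 (plus) and Dusp8 at chr7:149281190-149281339 (minus).
Dusp1: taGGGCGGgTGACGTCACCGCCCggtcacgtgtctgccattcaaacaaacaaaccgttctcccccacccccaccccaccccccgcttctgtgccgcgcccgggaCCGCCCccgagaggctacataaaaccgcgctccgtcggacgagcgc
Dusp2: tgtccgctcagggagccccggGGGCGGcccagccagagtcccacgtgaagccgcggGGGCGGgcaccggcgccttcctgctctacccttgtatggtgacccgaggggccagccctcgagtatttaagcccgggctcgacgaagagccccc
Dusp4: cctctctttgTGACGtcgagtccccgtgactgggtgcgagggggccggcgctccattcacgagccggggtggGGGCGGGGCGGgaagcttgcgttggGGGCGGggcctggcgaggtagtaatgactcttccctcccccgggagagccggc
Dusp5: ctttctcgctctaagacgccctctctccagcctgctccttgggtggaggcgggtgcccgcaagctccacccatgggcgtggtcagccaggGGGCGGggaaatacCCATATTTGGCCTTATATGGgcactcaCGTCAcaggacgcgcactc
Dusp6: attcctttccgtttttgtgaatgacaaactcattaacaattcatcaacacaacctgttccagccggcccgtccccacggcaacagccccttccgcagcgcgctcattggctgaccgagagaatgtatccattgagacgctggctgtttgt
Dusp8: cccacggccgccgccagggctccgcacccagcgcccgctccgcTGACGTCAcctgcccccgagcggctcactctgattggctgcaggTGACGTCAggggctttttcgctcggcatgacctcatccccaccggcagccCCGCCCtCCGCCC
The window of Dusp8 is taken from the RefSeq TSS, those of the other 5 from the nearest GENCODE start, which lies 2 bp upstream of the RefSeq TSS for Dusp1, at the same base for Dusp2 and Dusp6, and farther upstream for Dusp4 (−313 bp) and Dusp5 (−209 bp).

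In the 150 bp before RefSeq TSSs, Dusp1 held 1 complete cAMP response element and Dusp8 held 2, where 1.8% of 25736 promoters held any. The GC box was found in 6 of 9 members and in 37.3% of promoters. No member held a CArG box there (0.824% of promoters), whereas before its GENCODE start Dusp5 held 2 directly abutting ones, CCATATTTGG and CCTTATATGG, at −46 to −37 and −36 to −27 bp. None of the 9 held the AP-1 site TGANTCA (3.84%), the TATA box TATAAA (7.43%), the ETS site CCGGAAG (7.17%), the STAT site TTCNNNGAA (3.88%) or an NF-kB site (4.98%) before the RefSeq TSS. Within 200 bp of the RefSeq TSS all 9 promoters had the base composition of a CpG island (GC content above 50%, observed to expected CpG above 0.6), from 53.5% GC in Dusp6 to 81.75% in Dusp7; 48.3% of all promoters with a call and 56.1% of high-coverage promoters did. These matches describe the sequence and carry no measurement of binding.

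**Figure D1:**
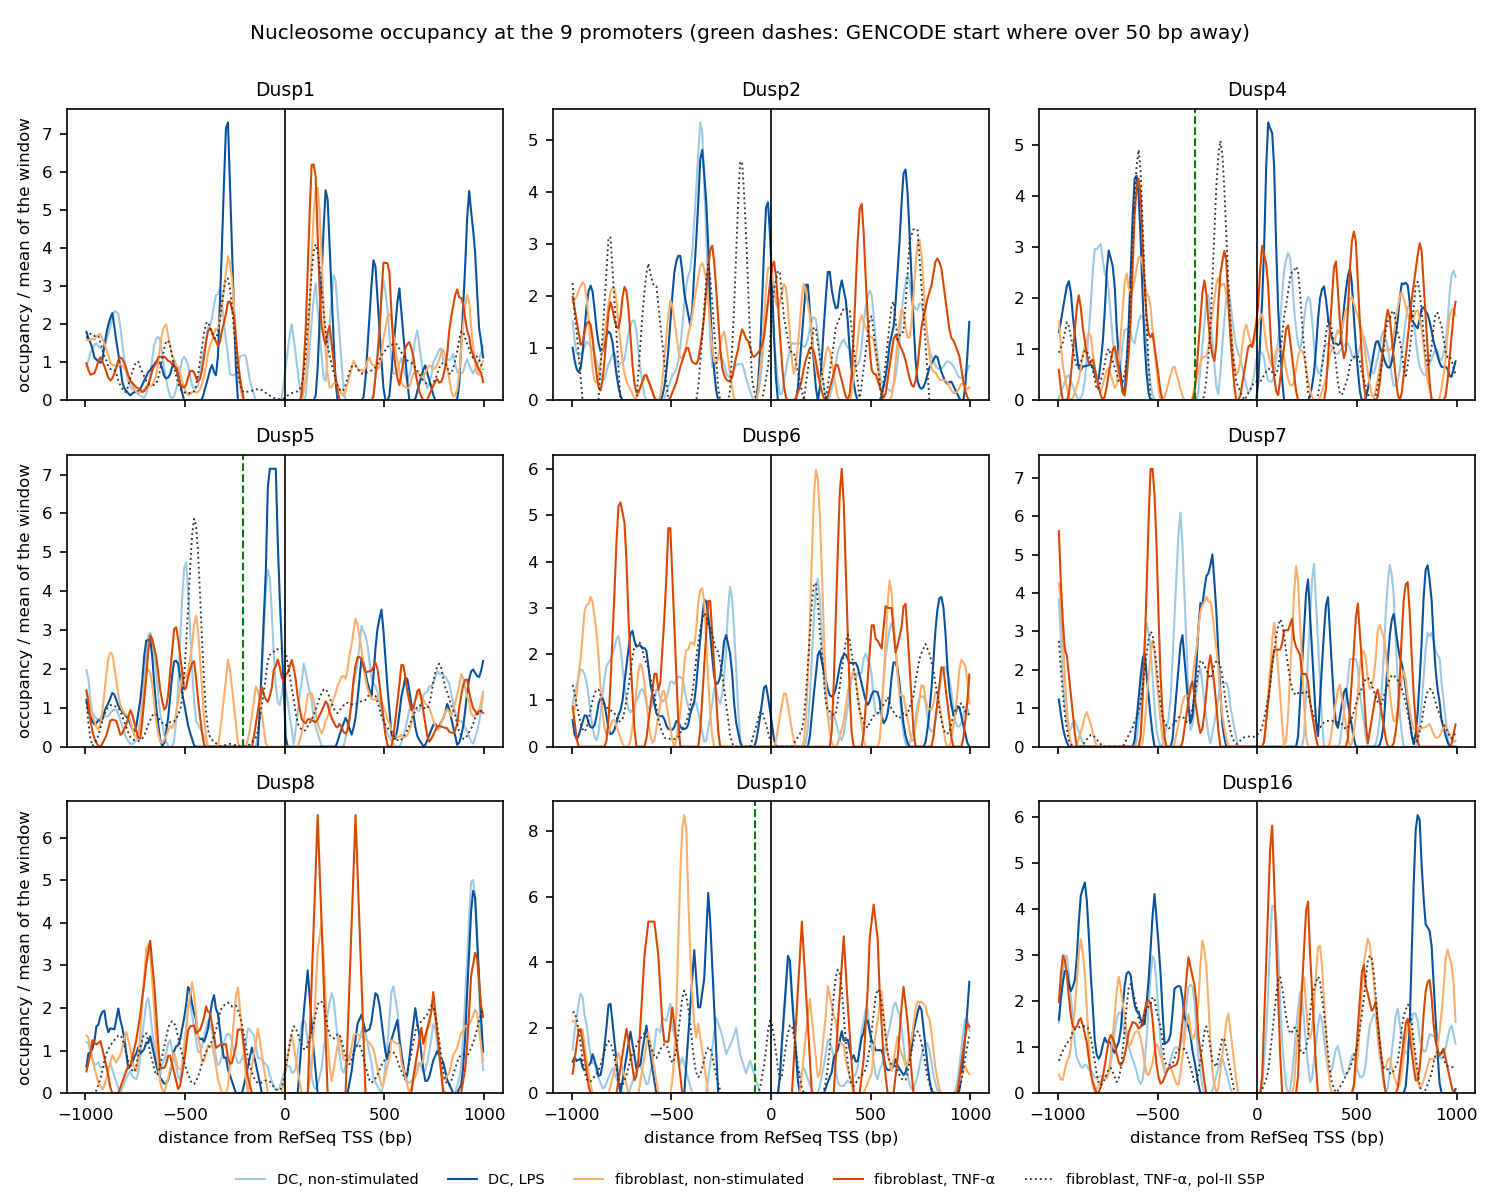
Nucleosome occupancy divided by its mean over the window (y) against distance from the RefSeq TSS in bp (x) for each of the 9 promoters, in the 4 pooled H3K4me1 sets and the pol-II S5P library; black lines mark the RefSeq TSS and green dashes the GENCODE start where it is more than 50 bp away. Dusp1 has an empty stretch before the TSS between 2 peaks in fibroblasts. At Dusp4 and Dusp5 low occupancy lies before the GENCODE start, except at Dusp5 in non-stimulated fibroblasts. At Dusp4 in LPS-stimulated DCs it extends to the RefSeq TSS.

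Active promoters carry a nucleosome-depleted region (NDR) before the TSS and phased nucleosomes after it. The NDR was measured as relative NDR occupancy, the mean from −150 to 0 bp divided by the mean of the whole window, and a promoter was called depleted below 0.5. In pooled sets 6 of 9 members were depleted in non-stimulated DCs (38.8% of high-coverage promoters), 7 in LPS-stimulated DCs (42%), 7 in non-stimulated fibroblasts (40.8%) and 6 in TNF-α-stimulated fibroblasts (44.6%). Over all promoters, without the coverage minimum that 4 members miss, these shares were 37.9, 41.6, 38.6 and 41.7%. In the same order, 7, 9, 7 and 7 of the 9 members had fewer filled bins than the median high-coverage promoter. The part of empty bins in the depletion calls was not tested. Dusp1, Dusp6, Dusp7, Dusp8, Dusp10 and Dusp16 were depleted in all 4 pooled sets. Dusp2 was depleted in none of them, and Dusp4 and Dusp5 in 1 each.

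Among the nuclear enzymes, Dusp1 had the emptiest and most regular promoter in the pooled sets. Its relative NDR occupancy was 0.0349 in non-stimulated DCs and 0 in LPS-stimulated DCs and in both fibroblast sets. In single control fibroblast libraries it was 0.663 and 0.361 without and 0.413 and 0 with TNF-α, and in BAF-knockdown libraries 0.729 and 0.664 without and 0.0399 and 0.546 with TNF-α. Single libraries thus showed more occupancy than the pooled sets, with replicates that differed widely. The highest bin between the TSS and 250 bp downstream, where the +1 nucleosome sits, was at a median of 155 bp over 15 libraries, and from 115 to 245 bp in all of them except BAF-knockdown replicate 1 after TNF-α (55 bp). It was at 245 and 205 bp in non-stimulated and LPS-stimulated DCs, and at 155 and 135 bp in the pooled fibroblast sets.

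Dusp2, whose enzyme is best known from activated leukocytes, was not depleted in any pooled set. Its relative NDR occupancy was 0.673 and 1.11 in non-stimulated and LPS-stimulated DCs and 0.696 and 1.23 in fibroblasts without and with TNF-α. Over the 8 single H3K4me1 libraries it ran from 0.333 to 1.09 with a median of 0.818, and 2 libraries, both from BAF-knockdown cells, were below 0.5. In pol-II libraries it was 0 and 1.06 (S7P) and 1.21 (S5P), so that the S7P replicates disagreed. Its expression before stimulation was above that of 58.3% of promoters in DCs and 45.1% in fibroblasts.

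At Dusp4 and Dusp5 the stretch before the RefSeq TSS was covered by nucleosomes. Relative NDR occupancy of Dusp5 was 2.11 and 3.96 in non-stimulated and LPS-stimulated DCs and 0.369 and 1.51 in fibroblasts without and with TNF-α, and was 1.65, 1.65 and 1.84 in the pol-II libraries. Only 2 of 15 libraries were below 0.5 at Dusp5, and 2 of 15 at Dusp4, where values ran from 0 to 1.55 with a median of 0.989. Because GENCODE places the start of both genes farther upstream, the 150 bp before that start was measured too, a choice made after these values had been seen.

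**Figure D2:**
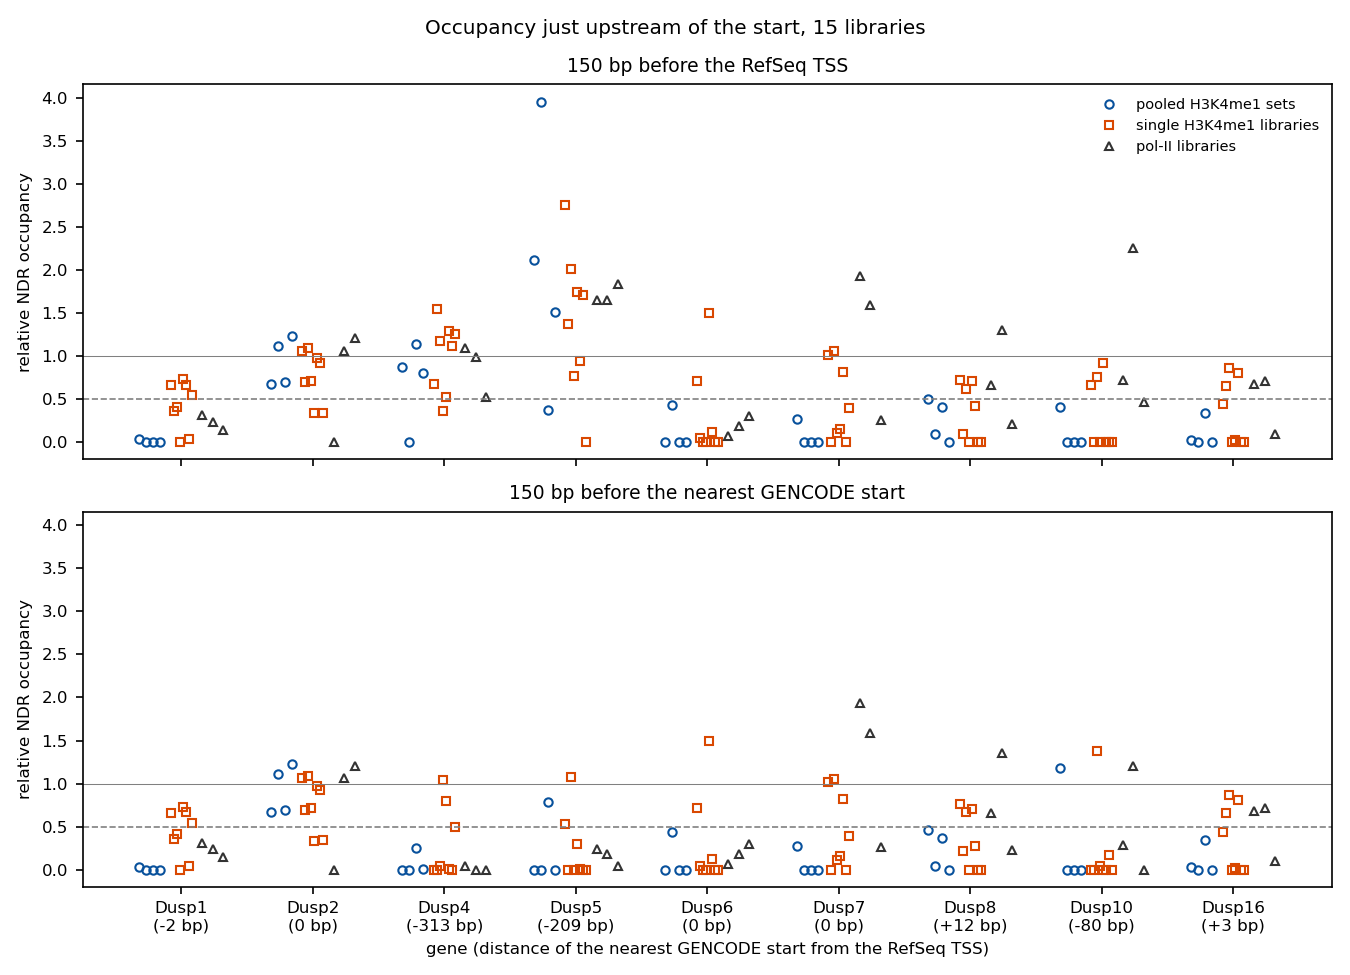
Relative NDR occupancy (y) of each gene (x) in 15 libraries, in the 150 bp before the RefSeq TSS (top) and before the nearest GENCODE start (bottom); each symbol is 1 library, the dashed line is 0.5 and the solid line 1. Dusp4 and Dusp5 lie mostly above 0.5 in the top panel and mostly below it in the bottom panel, and Dusp2, whose start is the same in both, is below 0.5 in 3 of 15 libraries.

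Before its GENCODE start Dusp5 was listed at 0 in both DC sets and in TNF-α-stimulated fibroblasts and at 0.78 in non-stimulated fibroblasts. The pol-II libraries gave 0.243 and 0.182 (S7P) and 0.0479 (S5P), and 12 of 15 libraries were below 0.5. Dusp4 was at 0 in both DC sets, 0.257 and 0.00902 in fibroblasts without and with TNF-α, and 0.0422, 0 and 0 in the pol-II libraries, with 13 of 15 below 0.5. At Dusp5 the run of bins below 0.5 times the mean went from −430 to −130 bp of the RefSeq TSS in non-stimulated DCs, from −480 to −130 bp after LPS and from −420 to −150 bp in TNF-α-stimulated fibroblasts, over the printed window with the abutting CArG boxes. Non-stimulated fibroblasts differed, with a run from −110 to 90 bp. Over the 86 high-coverage promoters whose nearest GENCODE start is 200 to 400 bp upstream, 24.4 to 31.4% were depleted before the GENCODE start in pooled sets and 26.7 to 34.9% before the RefSeq TSS, and in the S5P library 37.2 and 33.7%. Dusp4 and Dusp5, below the coverage minimum, are not among these 86. With GENCODE starts, 7, 8, 7 and 8 of the 9 members were depleted in non-stimulated DCs, LPS-stimulated DCs, non-stimulated fibroblasts and TNF-α-stimulated fibroblasts. Before the GENCODE starts of all high-coverage promoters that have one within 50 bp of the RefSeq TSS, 39.9, 43.3, 42.3 and 46.4% were depleted in the same order. Dusp4, Dusp5 and Dusp10, whose GENCODE starts lie farther away, and the low-coverage Dusp6 and Dusp7 are not among these promoters. Depletion was lost at Dusp10 in non-stimulated DCs, with 1.18 before a start 80 bp upstream, and at Dusp5 in non-stimulated fibroblasts.

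The ERK-directed cytoplasmic enzymes Dusp6 and Dusp7 were listed at 0 in 3 of the 4 pooled sets. Dusp6 was at 0.436 in LPS-stimulated DCs and Dusp7 at 0.27 in non-stimulated DCs. In pol-II libraries Dusp6 stayed low (0.0669, 0.182 and 0.303), whereas Dusp7 reached 1.94 and 1.59 with S7P and 0.259 with S5P. The depleted stretch around the TSS, the longest run of bins below 0.5 times the mean, spanned 350, 200, 340 and 580 bp at Dusp6 in the pooled sets, in the order of non-stimulated DCs, LPS-stimulated DCs, non-stimulated fibroblasts and TNF-α-stimulated fibroblasts. The median over high-coverage promoters was 110 to 150 bp. Both genes have low coverage, and an empty bin there can also be one that no fragment happened to reach.

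Among the JNK- and p38-directed enzymes, Dusp8 was at 0.496 and 0.0911 in DCs without and with LPS and at 0.405 and 0 in fibroblasts without and with TNF-α, although the gene was listed at 0 expression in non-stimulated DCs. Dusp10 was at 0.411 in non-stimulated DCs and 0 in the other pooled sets. At Dusp16 the DC sets gave 0.026 without and 0 with LPS, and the fibroblast sets 0.339 without and 0 with TNF-α. Its 0 after LPS lay in a 1060 bp run of bins below 0.5 times the mean, from −310 to 750 bp. That run was longer than at 99.9% of high-coverage promoters and was not confined to the stretch before the TSS. Only 45% of bins were filled there in that set, and the part of empty bins in this value was not tested. Dusp8 and Dusp16 were thus lower in the stimulated than in the non-stimulated set of both cell-types, and Dusp10 in DCs. The median of all high-coverage promoters was lower too, at 0.665 without and 0.631 with LPS and 0.648 without and 0.597 with TNF-α. Outside the pooled sets depletion was less steady. Each of these genes was below 0.5 in 5 of 8 single H3K4me1 libraries. The highest single values were 0.723 at Dusp8, 0.925 at Dusp10 and 0.867 at Dusp16. With S7P all were above 0.5, at 0.659 and 1.30 (Dusp8), 0.718 and 2.25 (Dusp10) and 0.676 and 0.714 (Dusp16). With S5P they were below it, at 0.211, 0.462 and 0.1.

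To compare stimulation in the pooled sets, which have no replicates and no test, relative NDR occupancies plus 0.1 were set as ratios and counted beyond 1.5-fold. After LPS 3 of 9 members were higher (Dusp2, Dusp5 and Dusp6; 21.9% of high-coverage promoters) and 4 lower (Dusp4, Dusp7, Dusp8 and Dusp10; 28.5%). After TNF-α 2 were higher (Dusp2 and Dusp5; 22.1%) and 2 lower (Dusp8 and Dusp16; 30.5%). Dusp2 and Dusp5 were the members higher in both cell-types, with ratios of 1.57 and 1.83 after LPS and 1.67 and 3.43 after TNF-α, and Dusp8 the one lower in both, with 0.32 and 0.198. Dusp1, Dusp6, Dusp7 and Dusp10 were listed at 0 in both fibroblast sets. Without replicate error these counts describe single sets.

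Patterning of whole promoters was then compared between cell-types. A patterning level weights the centred occupancy of each bin by a template, the average over active promoters of the same cell-type before stimulation, and sums over bins, so that high levels mean a profile like that of active promoters. Dusp1 had levels of 13.5 and 7.46 in non-stimulated and LPS-stimulated DCs and 32.3 and 38.8 in fibroblasts without and with TNF-α. In fibroblasts it stood above 98.4 and 99% of high-coverage promoters, in DCs above 76.4 and 55.6%. With 2 sets each the cell-types did not overlap. Both DC sets lay below both fibroblast sets at 2 of 9 members (Dusp1 and Dusp7; 20.6% of high-coverage promoters) and above them at 2 (Dusp4 and Dusp16; 18.2%). The fitted difference, DCs less fibroblasts with the stimulus as a term, was −25.1 (SE 6.78, limma, unadjusted p = 0.00337, adjusted p = 0.373), and did not pass the adjustment. Dusp2 followed with 8.40 (SE 6.60, limma, adjusted p = 0.786). This fit of 4 pooled sets left 1 residual degree of freedom per promoter, beside 10.2 that limma borrowed across promoters. Its p-values therefore do not measure the spread between replicates. Of the 5 members tested none was called by limma, as 0% of 13559 promoters were in either direction; at an unadjusted p under 0.05, 1 member (Dusp1) and 4.73% of promoters were lower in DCs, and no member and 3.85% higher. Set against all 10 fibroblast H3K4me1 libraries, after division by mean occupancy, the difference at Dusp1 was −5.71 (SE 5.21) in place of −15.4 (SE 4.23) against the pooled sets on the same scale. Without a coverage minimum, the low-coverage Dusp5 differed by −24.4 (SE 7.09, limma, adjusted p = 0.695). Its levels were −12.6 and −39.1 in DCs and 10.4 and −13.4 in fibroblasts without and with stimulus.

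The 8 single libraries address whether TNF-α and BAF knockdown alter these promoters. At Dusp1 patterning levels were 4.41 and 8.77 in non-stimulated and 12 and 16.9 in TNF-α-stimulated control cells, and 0.938 and −0.567 against 6.35 and 13.5 in BAF-knockdown cells. Stimulated libraries lay above non-stimulated ones within each of the 2 cell populations. The fitted TNF-α difference was 8.79 (SE 2.82, limma, unadjusted p = 0.0103, adjusted p = 0.954). Dusp10 had the largest fitted difference, 9.07 (SE 5.53, adjusted p = 0.954), from −15.9 and 7.01 to 8.66 and 16.8 in control and from 1.3 and 14.3 to 11.2 and 6.23 in BAF-knockdown cells. Non-stimulated control replicate 1 stood lowest, and without it the difference at Dusp10 was 2.85, below that at Dusp1 (8.12). None of the 5 members was called (0% of 13427 promoters in either direction); at an unadjusted p under 0.05, 1 member and 2.99% of promoters were higher, and no member and 1.82% lower.

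**Figure D3:**
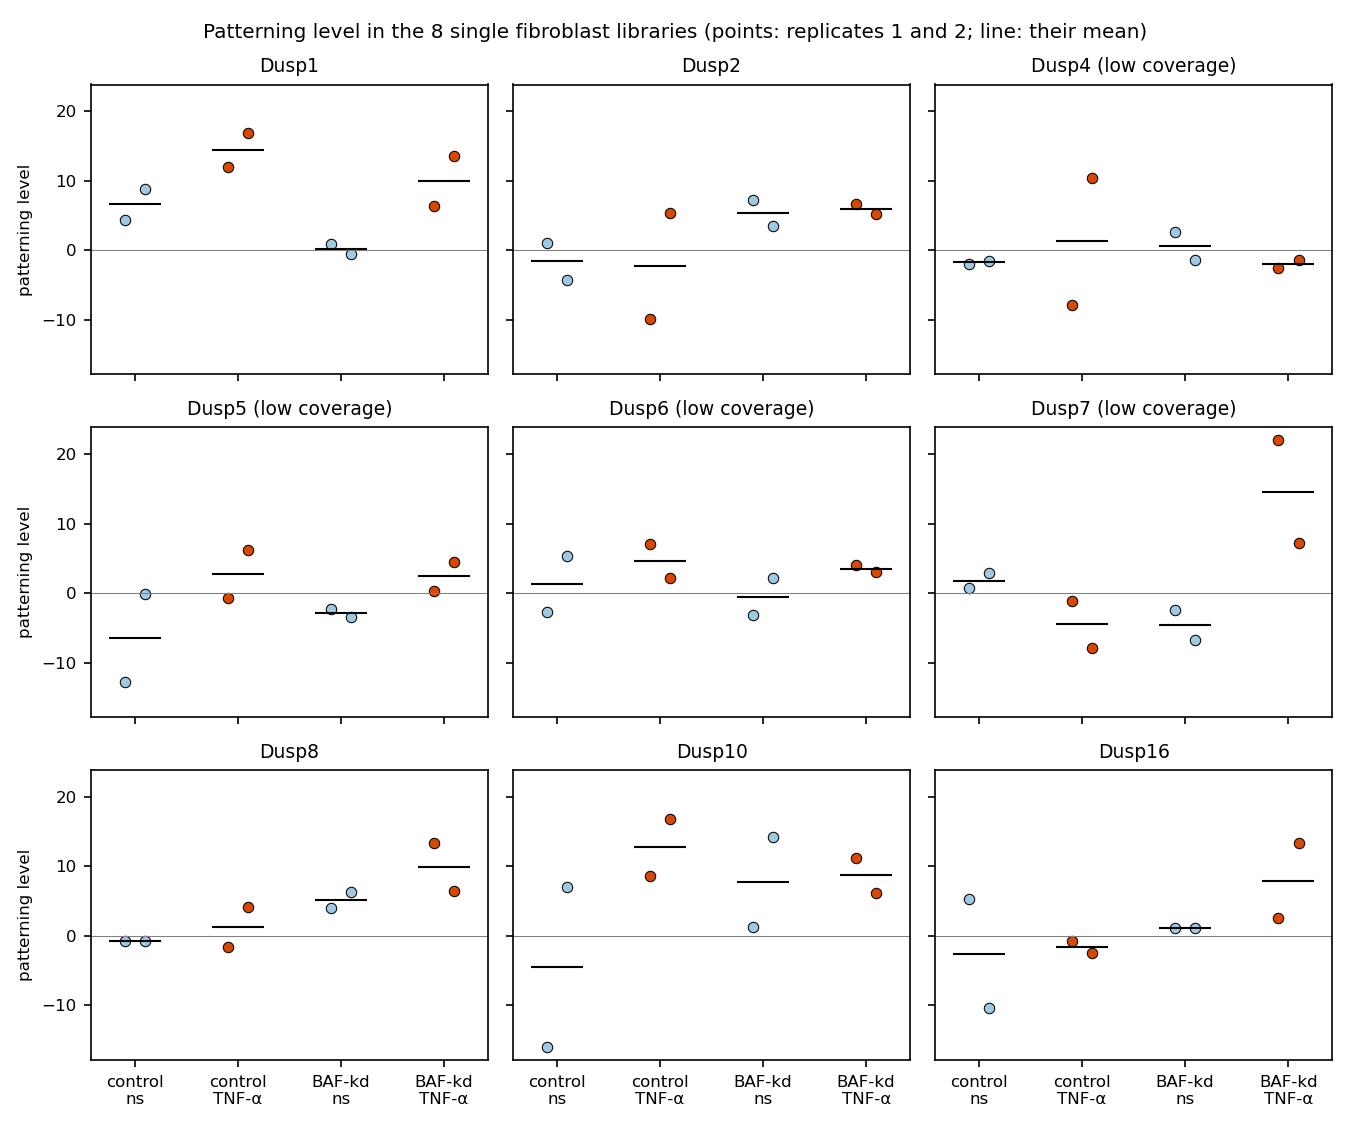
Patterning level (y, sum of template times centred occupancy) of the 9 promoters in control and BAF-knockdown (BAF-kd) fibroblasts, non-stimulated (ns, blue) or after TNF-α (orange); points are replicates 1 and 2 and lines their mean. Dusp1 is higher after TNF-α in both populations, with 4.41 and 8.77 against 12 and 16.9 in control cells, and Dusp7 lies below the non-stimulated points in control and above them in BAF-knockdown cells.

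Over the 9 members without a coverage minimum, 8 fitted TNF-α differences were above 0, as were 52.6% of 25221 promoters. In BAF-knockdown cells both stimulated libraries lay above both non-stimulated ones at 6 of 9 members (Dusp1, Dusp5, Dusp6, Dusp7, Dusp8 and Dusp16; 18.8% of promoters), and in control cells at 2 (Dusp1 and Dusp10; 15.5%). Both lay below at none in BAF-knockdown (13.9%) and at 1 in control cells (Dusp7; 16%). All 4 stimulated lay above all 4 non-stimulated libraries at none of the 9 (1.57% of promoters) and below them at none (1.11%). Whole BAF-knockdown libraries differed in the same direction, with a lower median relative NDR occupancy of high-coverage promoters after TNF-α. In control cells that median was 0.740 and 0.733 in replicates 1 and 0.606 and 0.618 in replicates 2, without and with TNF-α. The median relative NDR occupancy of high-coverage promoters was 0.724 to 0.740 in control replicate 1 of both states and in both non-stimulated BAF-knockdown libraries, and 0.606 to 0.630 in the other 4, of which 3 were stimulated. Members below 0.5 numbered 1 and 5 in non-stimulated control, 2 and 7 in stimulated control, 3 and 3 in non-stimulated BAF-knockdown and 6 and 7 in stimulated BAF-knockdown libraries, with 34.7 to 44.6% of promoters. The part of this shift in the members' values was not tested.

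BAF-knockdown differences were largest at Dusp2 (7.57, SE 3.49, limma, adjusted p = 0.939) and Dusp8 (7.27, SE 2.79, unadjusted p = 0.0252, adjusted p = 0.933). Dusp8 had levels of −0.782, −0.773, −1.56 and 4.13 in control libraries, in the order of non-stimulated and then stimulated replicates, and of 3.99, 6.27, 13.4 and 6.42 in BAF-knockdown libraries, so that control and knockdown overlapped, with 1 stimulated control library above the lowest knockdown library. All 4 BAF-knockdown libraries lay above all 4 control libraries at none of the 9 members (1.4% of promoters) and below them at none (1.44%). Dusp2 ranged from −9.83 to 5.38 in control and from 3.5 to 7.24 in BAF-knockdown libraries, and its difference was 4.40 without stimulated control replicate 1, where Dusp8 was at 5.86. None of the 5 members was called (0% of promoters); at an unadjusted p under 0.05, 1 member and 2.71% of promoters were higher and no member and 2.57% lower. Both BAF-knockdown replicates 1 carry another mark in their labels (04U against 12U), whose meaning the labels do not state. Without them the difference at Dusp8 was 6.09 (SE 3.52).

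The TNF-α difference itself was compared between BAF-knockdown and control cells. Dusp10 (−16.3, SE 10.3, limma, adjusted p = 0.954) and Dusp16 (5.76, SE 7.93, adjusted p = 0.977) had the largest fitted differences, both within 2 standard errors of 0. Leaving out non-stimulated control replicate 1 gave −4.81 at Dusp10 and −2.06 at Dusp16, and leaving out replicate 2 gave −27.8 and 13.6. None of the 5 members was called (0% of promoters) or had an unadjusted p under 0.05, which 3.11% of promoters had in the higher and 1.88% in the lower direction. Without a coverage minimum 1 of 9 members, Dusp7, had an unadjusted p under 0.05 in the higher direction, as had 3% of promoters.

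Pol-II libraries recover promoters that carry the polymerase, and S7P libraries were compared with the H3K4me1 libraries of stimulated control fibroblasts, the same 2 that enter the TNF-α comparison. Patterning levels of Dusp1 in pol-II libraries were 15.9, 14.2 and 16.4, above 88.9 to 96.4% of high-coverage promoters, and its relative NDR occupancy was 0.31, 0.235 and 0.147. Its 3 pol-II libraries lay close together on both measures. The fitted difference after division by mean occupancy was −14.0 at Dusp10 (SE 6.07, limma, adjusted p = 0.807) and 3.85 at Dusp16 (SE 4.84, adjusted p = 0.914), and none of the 5 members was called (0% of 13437 promoters) or had an unadjusted p under 0.05 (2.82% higher, 3.13% lower). Against the pooled H3K4me1 set of stimulated fibroblasts, relative NDR occupancy in the S5P library was beyond 1.5-fold higher at 6 members (31.9% of high-coverage promoters) and lower at none (29%). All 6 (Dusp1, Dusp6, Dusp7, Dusp8, Dusp10 and Dusp16) were listed at 0 in the pooled set and between 0.1 and 0.462 in the S5P library, which left them all depleted. From 0 a value cannot fall, so the direction at these 6 was fixed by the floor. The shares of promoters beside them cover any starting value. Filled bins at these 6 were 43.5 to 76% in the pooled set and 79.5 to 100% in the S5P library, and their part was not tested.

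**Figure D4:**
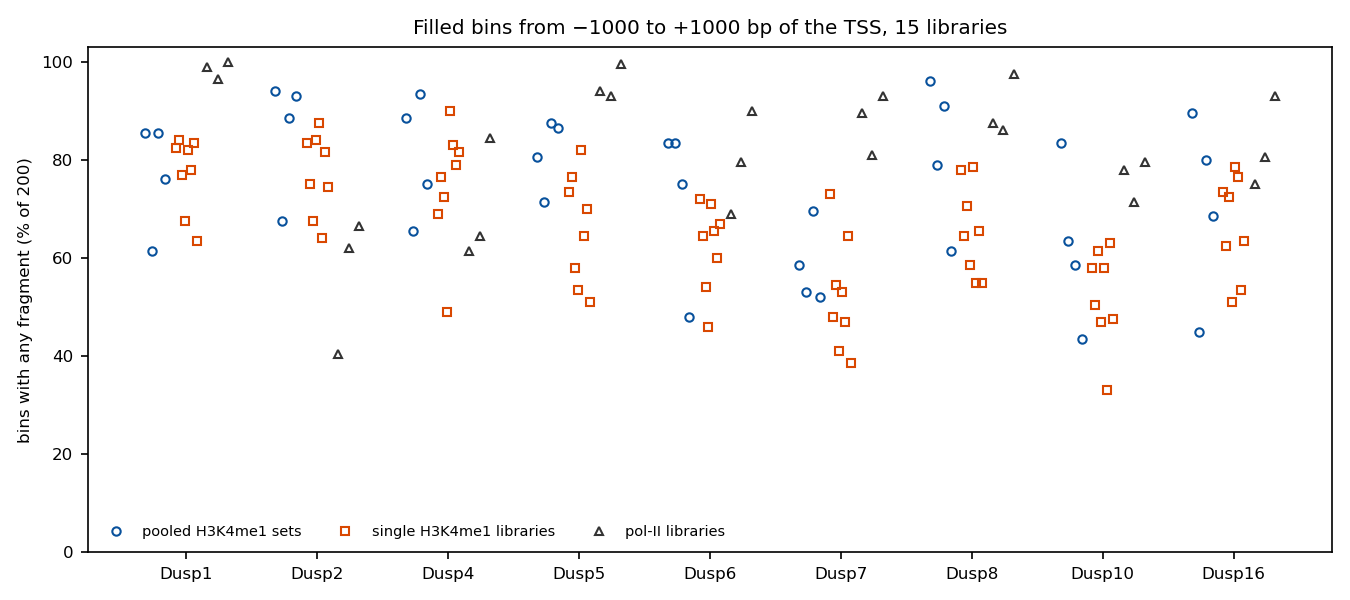
Percentage of the 200 bins that hold any fragment (y) at each promoter (x) in 4 pooled H3K4me1 sets, 8 single H3K4me1 libraries and 3 pol-II libraries, 1 symbol per library. The pol-II libraries lie above every H3K4me1 library at Dusp1, Dusp5 and Dusp7. At Dusp2 they lie low, at 40.5 to 66.5% against 64 to 94%, and the ranges overlap.

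The share of filled bins also differed between pol-II and H3K4me1 libraries at some members, a measure added after the values had been seen. At Dusp1 96.5 to 100% of bins were filled in 3 pol-II libraries against 61.5 to 85.5% in 12 H3K4me1 libraries, at Dusp5 93 to 99.5% against 51 to 87.5%, and at Dusp7 81 to 93% against 38.5 to 73%. No overlap in this direction was seen at 8.89% of all promoters. Dusp2 had 40.5, 62 and 66.5% of bins filled in pol-II libraries and 64 to 94% in H3K4me1 libraries. Fitted differences between S7P and H3K4me1 libraries of stimulated control cells, each less its library median, passed at 3 of 9 members: Dusp5 (29.75 percentage points, SE 9.15, limma, adjusted p = 0.00905) and Dusp7 (29.5, SE 9.15, adjusted p = 0.00966) were higher, as 8.76% of promoters were, and Dusp2 lower (−32.5, SE 9.15, adjusted p = 0.00428), as were 17.4%. Dusp1 differed by 17.5 (limma, adjusted p = 0.138). In this fit limma gave all promoters the same spread, hence the equal SEs. These p-values therefore do not measure the spread between replicates at each promoter. All 3 calls were lost when any 1 of the 4 libraries was left out: differences then ran from 23.75 to 35.75 at Dusp5, from 19.75 to 39.25 at Dusp7 and from −46.25 to −18.75 at Dusp2, and adjusted p-values (limma) from 0.0551 to 0.352. Without control replicate 2 Dusp2 was at −18.75.

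Other genes of the pathway were followed through the same fits. Of the high-coverage promoters of 13 MAP kinases (11 promoters), 7 MAP kinase kinases (4), 18 MAP kinase kinase kinases (8), 16 atypical dual-specificity phosphatases (13) and 7 ERK feedback inhibitors of the Sprouty and Spred families (2), none was called in any of the 5 limma comparisons. Median TNF-α differences were 0.63, 4.77, 1.00, −2.79 and 2.32 for these lists in turn, 3.89 for the 5 tested members and 0.27 for all promoters. At an unadjusted p under 0.05 the TNF-α difference singled out Mapk3 (lower) in these lists and Dusp1 (higher) among the members. In non-stimulated fibroblasts the median patterning level was 9.48 for MAP kinases, 4.79 for MAP kinase kinases, 4.96 for MAP kinase kinase kinases, 3.77 for atypical phosphatases, 4.93 for ERK feedback inhibitors and 10.1 for the members, and 5.74 for all high-coverage promoters. In TNF-α-stimulated fibroblasts these medians were 4.67, 15.1, 5.08, 7.31, 21.1, 21.6 and 6.12.

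The profile of Dusp1 was compared with all others by Euclidean distance, averaged over the 12 H3K4me1 libraries. Distances were taken between square roots of occupancy divided by the promoter's own mean in each library. Its nearest high-coverage promoters were Cmip (8.43), Speer4cos (8.49) and 4930518P08Rik (8.54), where the median promoter was at 10.9. Its nearest member was Dusp2 at 10.2 and its farthest Dusp7 at 12.7.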

How the data were processed

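Occupancies of 15 libraries were used as the authors deposited them, as a signal without read counts. Per the study's methods, alignment was to mm9 with bowtie (the submitters' processing notes name Bowtie2 and bedtools), and duplicates above a limit were dropped. Fragments from 140 to 180 bp were used where both ends had been read, and single ends were lengthened. Counts in bins of 10 bp were divided by those of the local 1 kb and smoothed over 50 bp; blank bins were set to 0 here. Rows carry no names and were taken in the order of the promoter table: the share of filled bins and the coverage score correlated at a Spearman rho of 0.460 across promoters, and at 0.323 with rows moved by 1. The authors' promoter table adds this coverage score, expression before stimulation (scale not stated, used within a cell-type) and stimulation differences of array expression, which were not used. Groups follow the sample titles.

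The members and lists were chosen with earlier results of these data known. RefSeq identifiers gave a symbol for 24924 of 25881 promoters (96.3%). Coverage above 100 left 13559, and active promoters (expression above 0.02 times the mean; 8373 in DCs, 6458 in fibroblasts) gave the templates. Table starts on the plus strand equal GENCODE starts of mm9 without an offset, so they were read as 1-based. Differences were fitted for each promoter with limma 3.58.1 in R 4.3.3 with Benjamini-Hochberg adjustment at 0.05; without a coverage minimum for the 4 members at or under it. Promoters with no fragment in any library of a fit were left out. In simulated TNF-α data with 200 of 13427 promoters shifted, 61.5% were recovered at a shift of 4 residual SD and 1.5% at 2, so that modest differences cannot be detected at this replication. Arrays of bins and figures used Python with NumPy and matplotlib. Named in full are called members and the 2 with the largest fitted difference in each comparison. No column of values remained without a sample. More bins were empty in single than in pooled libraries, which makes their values less precise.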

Additional observations from a re-analysis of the deposited data

Results flagged for a closer look

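Dusp7, an ERK phosphatase with low coverage at its promoter (score 41.5), had mean TNF-α differences of opposite sign in the 2 cell populations. Its patterning level was 0.71 and 2.87 without and −1.16 and −7.84 with TNF-α in control fibroblasts, a mean difference of −6.29, and −2.37 and −6.72 without and 21.9 and 7.16 with TNF-α in BAF-knockdown fibroblasts, a mean difference of 19.1. In the fit without a coverage minimum the difference of differences was 25.4 (SE 7.47, limma, unadjusted p = 0.00793, adjusted p = 0.960), which did not pass. At an unadjusted p under 0.05, 3% of 25221 promoters were higher in this comparison. Its filled bins were 73 and 48% and then 54.5 and 41% in control cells without and with TNF-α, and 53 and 47% and then 64.5 and 38.5% in BAF-knockdown cells; their part in the result was not tested. With groups of 2 libraries no single library could be tested for standing apart.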

How the results depend on the processing

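In the 5 comparisons of patterning no member was called under any alternative that was run. Leaving out 1 library at a time gave 0 calls in the 4 comparisons where it was run, all except that of the cell-types, whose pooled sets have no replicates. The fitted differences of the 2 members named in each comparison kept their sign except at Dusp10 for the difference of TNF-α differences (1.75 with NDR depth in place of patterning), at Dusp16 for pol-II S7P (−1.76 with square roots, −1.35 with NDR depth) and at Dusp16 for the difference of TNF-α differences (−2.06 to 13.6 with 1 library left out); the cause was not tested. Of the members not named, Dusp2 for TNF-α, Dusp10 for BAF-knockdown, Dusp1, Dusp2 and Dusp8 for the difference of TNF-α differences and for pol-II S7P, and Dusp8 and Dusp10 for the cell-types changed sign under at least 1 alternative. Leaving out 1 library gave −19.2 to −8.82 at Dusp10 for pol-II S7P. The 3 calls on filled bins became 1 of 5 with the coverage minimum (fewer promoters tested), 0 with a replicate block and 0 to 0 with 1 library left out. Promoter by promoter, same-numbered libraries did not deviate together (correlations of 0.000413 to 0.0138 over 13559 promoters). Shifts shared by a whole library do not enter these correlations, so they cannot decide whether the numbers pair the libraries. Median patterning without and with TNF-α was 1.90 and 1.94 in control replicates 1, and 2.67 and 2.66 in control replicates 2. In BAF-knockdown libraries it was 1.94 and 2.68 in replicates 1, and 2.01 and 2.66 in replicates 2. With a replicate block the 4 patterning comparisons of single libraries gave 0 calls. The cell-types have no numbers to pair. A coverage minimum of 200 left no member and gave no value. Counts beyond 1.5-fold in the pooled sets and the S5P library stayed within 1.5 times under the other window, the flank as reference and 2-fold. Depth limits all values of single promoters, since up to 67% of bins were empty in a library.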
